A study of Mus musculus with 6 samples.

Results

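Collagen chains, laminin chains and integrin subunits were described in RNA-seq of the medial ganglionic eminence (MGE), the embryonic ventral forebrain region that gives rise to many cortical interneurons. Members were picked by gene symbol, with earlier results of these data known. They were 83 of the 34745 genes in the deposited table, made up of 44 collagens, 11 laminins and 28 integrins. A further 4 genes matched the same name patterns (Itgb1bp1, Itgb1bp2, Itgb3bp and Itgbl1) and were left out, because they encode proteins that bind or resemble integrins and are no subunits. Itgam was listed under 2 identifiers, so the 83 members carried 82 symbols.

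The mouse MGE was sampled at embryonic day 12.5 from 3 Sp9 null (Sp9-/-) samples and from 3 samples of wild type littermates, and both groups were of mixed C57BL/6J, CD1 and 129S6 descent. Sp9 is a transcription factor with zinc fingers, expressed by MGE progenitors and their progeny, and the comparison asks which transcripts differ when it is lost. The labels do not say whether a sample was 1 embryo or a pool, or whether samples came from separate litters, so p-values measure only the spread between these samples. Library totals ran from 6826447 to 10979280 counts, so that 3 counts, taken as the floor of detection, were worth 0.273 to 0.439 counts per 1000000 counts of the library (CPM), for counting error only. Sp9 itself was counted 1939, 2700 and 1870 times in wild type and 89, 116 and 118 times in null (log2 fold change -4.13, SE 0.14), which matches the labels of all 6 libraries. Of 9 MGE marker genes, such as Nkx2-1 and Lhx6, all were detected and tested in both genotypes. Their levels were not all alike. With genotype alone edgeR called 1 of them higher in null. With the replicate number taken into account it called 3 higher (Dlx1, Dlx2 and Gad2) and 2 lower (Lhx6 and Gad1), beside 4.0% of all genes. All of these called markers lie on chromosome 2, as Sp9 does. Dlx1, Dlx2 and Gad1 lie 1.74, 1.73 and 2.67 Mb from Sp9.

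Collagens are secreted chains that assemble into helical trimers. Some form the fibrils of connective tissue, and type IV collagen forms the network of basement membranes, the thin sheets under the pia and around brain vessels. Laminins are trimers of an alpha, a beta and a gamma chain and are the other main network of these sheets. Integrins are cell-surface receptors, each made of an alpha and a beta subunit, that bind these proteins and tie them to the cytoskeleton. In the embryonic forebrain, radial glial endfeet hold on to the pial basement membrane through integrins, and the alphav and beta8 subunits act together in the contact between neuroepithelium and growing vessels.

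With the replicate number taken into account, 2 of the 52 tested members passed the edgeR test, 3.85% against 4.0% of all genes. Both were integrins. Itga4 and Itgav, 2 integrin alpha subunit genes on chromosome 2, were higher in all 3 Sp9 null libraries than in any wild type library, about 2.03-fold and 1.5-fold. Neither passed the edgeR test with genotype alone on all 6 libraries, both passed when the replicate number was taken into account, and neither passed under every setting. Itga4 and Itgav lie 5.97 and 10.44 Mb from Sp9. Of the 187 tested genes within 20 Mb of Sp9, 19.3% passed with the replicate number. No collagen and no laminin passed in either edgeR fit. The most abundant members of each class (Itgb1, Itgb8, Col4a1, Col4a2, Col5a2, Lamb2, Lamc1 and Lama1) differed by 0.18 or less on the log2 scale.

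The 2 genes that passed with the replicate number taken into account, Itga4 and Itgav, are shown here by their proximal promoters. The Sp family of factors is known to bind the GC box. Neither gene passed with genotype alone, and binding of Sp9 to them was not tested. The sequences are the 250 bases before the annotated start, from RefSeq on GRCm38.p6, on the plus strand, with GC boxes (GGGCGG, or CCGCCC on the other strand) in capitals. They cover chr2:79255176-79255425 for Itga4 and chr2:83724147-83724396 for Itgav.
Itga4: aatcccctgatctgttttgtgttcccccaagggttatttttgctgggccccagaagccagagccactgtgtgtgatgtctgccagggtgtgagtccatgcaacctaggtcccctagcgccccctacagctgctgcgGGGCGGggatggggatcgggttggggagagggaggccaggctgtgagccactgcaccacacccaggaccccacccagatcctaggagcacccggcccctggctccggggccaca
Itgav: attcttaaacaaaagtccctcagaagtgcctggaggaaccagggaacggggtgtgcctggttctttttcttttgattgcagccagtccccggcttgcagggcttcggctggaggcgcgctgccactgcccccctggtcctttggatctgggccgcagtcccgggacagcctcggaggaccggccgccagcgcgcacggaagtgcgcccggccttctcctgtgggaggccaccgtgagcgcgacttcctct
The Itga4 window held 1 GC box, which begins 114 bases before the start, and the Itgav window held 0. A GC box in either orientation was present in 32.7% of the 32851 promoter windows of all genes, so a match in a single window is a description and no evidence of binding. The GC content was 64.0% for Itga4 and 64.4% for Itgav, against a mean of 53.2% over all windows. A window was found for 59 of the 82 member symbols, and 31 of their 65 windows (47.7%) held a GC box.

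Levels were compared between genes as FPKM (fragments per kilobase of transcript, scaled to the library total), since longer transcripts collect more reads. Over the 6 libraries, 24 of the 83 members had a mean FPKM of 1 or more, namely 8 integrins, 11 collagens and 5 laminins, and 9 had 5 or more. At the other end, 6 members had 0 counts in every library (Col6a6, Col8a2, Col10a1, Col13a1, Itgb2l and the second Itgam entry), and 13, these 6 included, never exceeded 3 counts. The 3 highest genes held 75.6% of the summed FPKM of the integrins, 57.6% of that of the collagens and 79.1% of that of the laminins. The matrix and receptor transcripts of this tissue were therefore dominated by a few genes in each class.

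**Figure D1:**
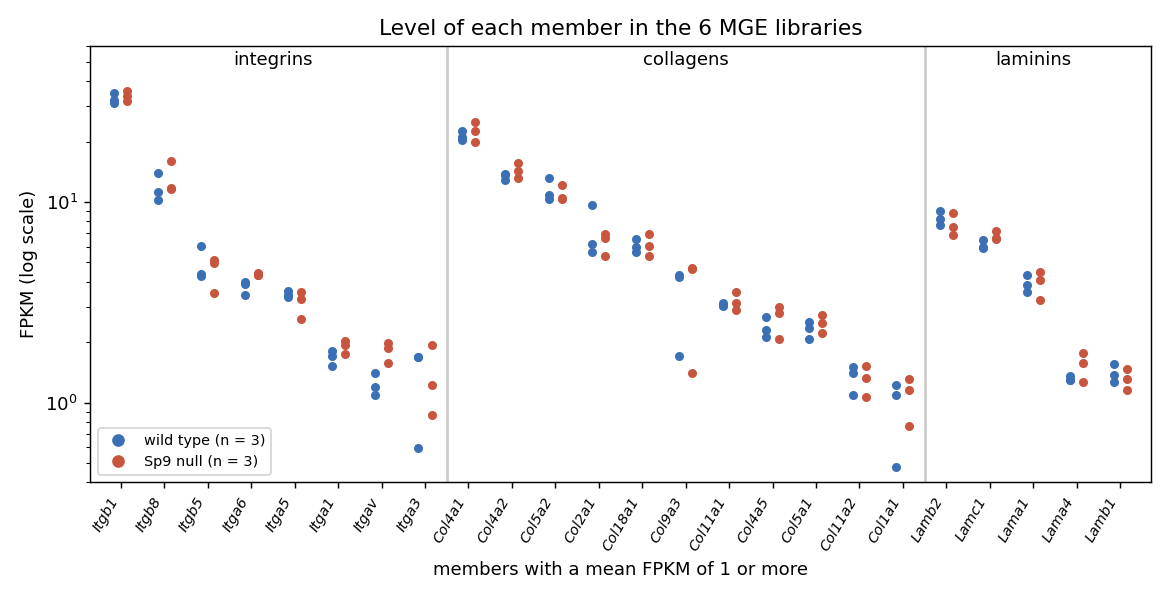
FPKM (log axis) of the 24 members with a mean of 1 or more, one point per library, wild type in blue and Sp9 null in red, ordered by level within each class. Itgb1, Col4a1 and Lamb2 lead their classes with means of 33.3, 21.9 and 8.01 FPKM, and the 2 genotypes overlap for most genes. Itga6, Itgav and Lamc1 are seen apart.

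Among the integrin beta subunits, Itgb1, the partner of most matrix-binding alpha subunits, was the highest member of all, at 32.9 ± 1.92 FPKM in wild type and 33.8 ± 1.96 in null (SD, n = 3 each). It alone made up 49.9% of the summed integrin FPKM. Itgb8, which pairs with alphav and activates latent TGF-beta, followed at 12.4 FPKM over the 6 libraries, and Itgb5, another alphav partner, at 4.73. The alpha subunits were lower, led by the laminin receptor subunit Itga6 at 4.06 FPKM and the fibronectin receptor subunit Itga5 at 3.31. The collagen receptor subunit Itga1 had 1.79, Itgav 1.52 and the laminin receptor subunit Itga3 1.33 FPKM.

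The collagens were led by the basement membrane chains Col4a1 (21.9 FPKM) and Col4a2 (13.9 FPKM), which assemble together into the type IV network. They were followed by Col5a2, a fibrillar chain, at 11.2 FPKM, and by Col2a1, the fibrillar chain best known from cartilage, at 6.73. Col18a1, a heparan sulfate carrying collagen of basement membranes, had 6.08 FPKM. Type I collagen, the main collagen of connective tissue, was low, with Col1a1 at 1.0 and Col1a2 at 0.296 FPKM. Among the laminins the order was Lamb2 (8.01), Lamc1 (6.44), Lama1 (3.92), Lama4 (1.42), Lamb1 (1.35) and Lama5 (0.891 FPKM). Lama1 and Lama5 are alpha chains of epithelial-type basement membranes, and Lama4 is the alpha chain typical of vessels. Lama2 and Lamb3 were at most 0.0544 FPKM.

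Counts were tested over all genes with edgeR, whose adjusted p-values are given throughout, and 52 members passed the filter on low counts: 17 integrins, 27 collagens and 8 laminins. With genotype as the only term, 0 of the 52 had a Benjamini-Hochberg adjusted p under 0.05, against 0.147% of all 14929 genes tested. At an unadjusted p under 0.05 there were 5 of 52 (9.62%), 3 integrins and 2 collagens, against 5.91% of all genes. DESeq2 called 1 member, Itga4, and 0.563% of all genes. Same-numbered libraries of the 2 genotypes deviated together from their genotype means (correlations 0.336, 0.729 and 0.535 for numbers 1, 2 and 3). Wild type 1 correlated with null 3 by 0.354, so numbers 1 and 3 were not told apart. The fit was repeated with the replicate number as a block, a pairing read from these same counts. With the block, 2 of the 52 members were called (3.85%), both integrins and both higher in null, against 4.0% of all genes. At an unadjusted p under 0.05 with the block there were 7 of 52 (13.5%), against 17.2% of all genes. The share of members called was thus close to that of all genes in the blocked fit.

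The class summaries were close to those of all genes. The median log2 fold change with the block was 0.10 over the tested integrins, 0.041 over the collagens and -0.025 over the laminins, against -0.0067 over all tested genes. In 47 of the 52 tested members it lay between -0.5 and 0.5. The summed FPKM of the integrins was 65.1 ± 4.46 in wild type and 68.6 ± 4.91 in null, a ratio of 1.05. For the collagens it was 80.8 ± 2.1 and 82.4 ± 5.26 (ratio 1.02), and for the laminins 23.2 ± 0.361 and 23.3 ± 1.26 (ratio 1.01). These differences were smaller than the SD among wild type libraries in each class. The integrin sum was higher in null in all 3 same-numbered pairs, at 61.9, 70.2 and 63.2 FPKM against 67.6, 73.9 and 64.2. The integrin alpha subunits taken alone did not overlap. Their summed FPKM was 15.8, 14.7 and 15.0 in wild type and 16.9, 16.6 and 17.0 in null. That sum includes Itga4, Itgav, Itga6 and Itga9, which did not overlap one by one, so it is no independent result. A sum of Itga4 and Itga9 could not overlap, since neither gene did. These sums were described and not tested.

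**Figure D2:**
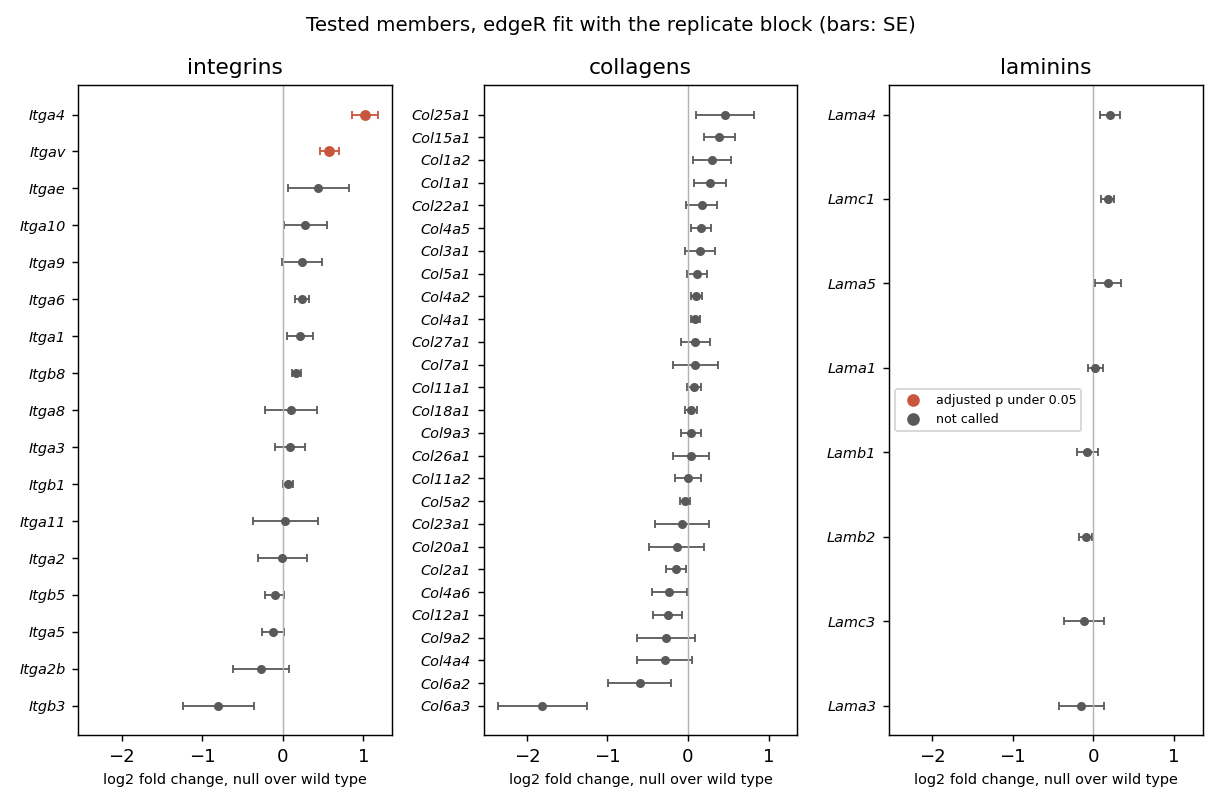
Log2 fold change, Sp9 null over wild type, of the 52 tested members in the edgeR fit with the replicate block, by class, with bars of 1 SE. Itga4 (1.02) and Itgav (0.58), in red, have an adjusted p under 0.05, and most other points lie between -0.5 and 0.5. Col6a3 (-1.81) is the lowest point and has a wide bar.

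Itga4 (ENSMUSG00000027009, chromosome 2, 79255426 to 79333123) encodes the alpha4 subunit, which pairs with beta1 or beta7 and binds fibronectin and the cell adhesion molecule Vcam1. Its counts in replicates 1, 2 and 3 were 70, 68 and 81 for wild type and 109, 132 and 147 for null. In CPM these were 7.34, 6.23 and 8.17 against 16.0, 12 and 15.6. The lowest null library was thus above the highest wild type library, and the 3 null values were higher than wild type in every same-numbered pair.

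The log2 fold change of Itga4 was 1.02 (SE 0.18, adjusted p = 0.126) with genotype alone and 1.02 (SE 0.16, adjusted p = 5.58e-05) with the replicate block. An exact permutation test of the 3 against 3 CPM values, without the replicate number, gave the smallest two-sided p it can give, 0.1. The call was present in DESeq2 (adjusted p = 0.00670), in edgeR without the filter (0.0351), and with the block when any pair of same-numbered libraries was left out (3.13e-04 to 0.0170). The call was absent with RLE scaling, and with genotype alone when any single library was left out. The size ranged from 0.93 to 1.14 over 16 settings, of which 8 gave a call, and the highest edgeR adjusted p was 0.634. The FPKM of Itga4 was 0.464 ± 0.0623 in wild type and 0.931 ± 0.139 in null. Its share of the summed FPKM of all integrin alpha subunits was 3.06 ± 0.397% and 5.52 ± 0.774%, so it stayed a minor alpha subunit in both genotypes. In tissue RNA of this kind, a change in the number of cells of a type and a change in RNA per cell cannot be told apart.

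A limit of the Itga4 value is an overlap with Cerkl, a ceramide kinase-like gene on the opposite strand, over 2581 bases (79330543 to 79333123). Cerkl had 137 counts over the 6 libraries, 22.6% of those of Itga4, and with the block it differed by 0.75 on the log2 scale (SE 0.33, adjusted p = 0.219). The sources used here do not state whether counting used the strand, so reads in the overlap may belong to either gene. The ligands of alpha4 were at similar levels in both genotypes: fibronectin (Fn1) at 255 ± 37.0 CPM in wild type and 279.6 ± 72.1 in null, and Vcam1 at 65.3 ± 6.86 and 68.8 ± 11.1. With the block their log2 fold changes were 0.14 (SE 0.062, adjusted p = 0.243) and 0.089 (SE 0.077, adjusted p = 0.60).

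Itgav (ENSMUSG00000027087, chromosome 2, 83724397 to 83806916) encodes the alphav subunit, which binds proteins with an RGD motif and, with beta8, latent TGF-beta. Its counts were 157, 213 and 149 in wild type and 149, 300 and 245 in null. Scaled to the library totals these were 16.5, 19.5 and 15.0 CPM against 21.8, 27.3 and 26.0 CPM. The genotypes did not overlap, but the gap between the highest wild type and the lowest null library was about as wide as the SD within a genotype (2.29 and 2.87 CPM).

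The log2 fold change of Itgav was 0.58 (SE 0.15, adjusted p = 0.495) with genotype alone and 0.58 (SE 0.12, adjusted p = 0.00258) with the replicate block. With the block, the call was lost without the pair numbered 2 (adjusted p = 0.105) and without the pair numbered 3 (0.172), and in DESeq2 with the block (0.109). It was kept without the pair numbered 1 (4.56e-04), and the size ranged from 0.47 to 0.70 over 16 settings. The exact two-sided permutation p was again 0.1. Itgav stood at 1.23 ± 0.166 FPKM in wild type and 1.81 ± 0.208 in null. The beta8 partner did not follow in proportion: the ratio of Itgb8 to Itgav FPKM was 8.54, 9.82 and 10.3 in wild type and 7.33, 8.13 and 6.2 in null.

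**Figure D3:**
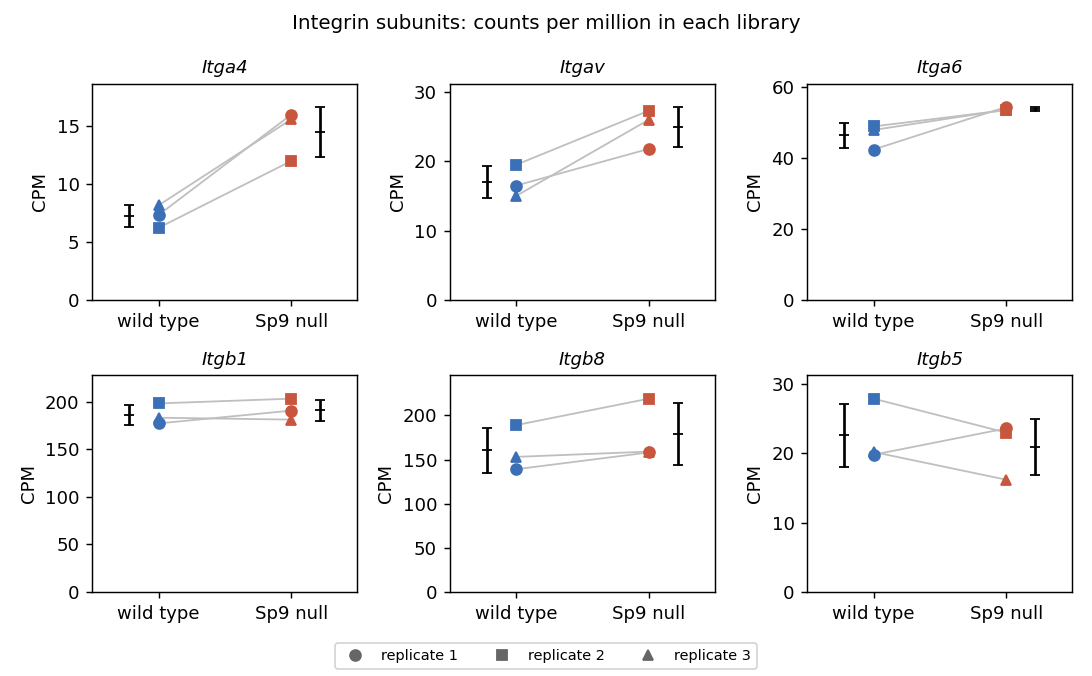
CPM of 6 integrin subunit genes in each library (axis from 0), wild type in blue and Sp9 null in red, with same-numbered libraries joined by lines and mean ± SD of 3 libraries beside the points. For Itga4, Itgav and Itga6 all null points lie above all wild type points. For Itgb1, Itgb8 and Itgb5 the genotypes overlap, and for Itgb8 replicate 2 is the highest library in both.

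Itga6 (chromosome 2, 71745616 to 71858416), the laminin receptor subunit of radial glia and endothelium, was the third member in which all null libraries were higher. It had 42.3, 48.8 and 47.8 CPM in wild type and 54.3, 53.4 and 53.5 in null. The null values lay within a narrow band above the wild type values. The log2 fold change was 0.24, with an edgeR adjusted p of 0.801 (SE 0.090) with genotype alone and 0.112 (SE 0.084) with the block, so Itga6 did not pass. Its exact two-sided permutation p was 0.1.

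Itga4, Itgav and Itga6 lie on the same chromosome as Sp9 (73271925 to 73284706), at 5.97, 10.44 and 1.41 Mb from it. Within 20 Mb of Sp9, 36 of 187 tested genes were called with the block, 19.3% against 4.0% of all genes, 26 of them higher and 10 lower. In this interval 6 genes had a log2 fold change at least as high as that of Itga4, itself included, among them Pdk1, Metap1d and Pde1a. Itgb6, also in the interval, was counted 3 times in wild type and 1 time in null and was not tested. Another 6 members on chromosome 2 (Col5a1, Col9a3, Col20a1, Itga8, Lama5 and Lamc3) lie farther than 20 Mb from Sp9, and their largest absolute log2 fold change with the block was 0.18. Both members called with the block thus lay in an interval whose genes as a whole were called more often than others, and the part that position plays in the values of Itga4 and Itgav was not tested.

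**Figure D4:**
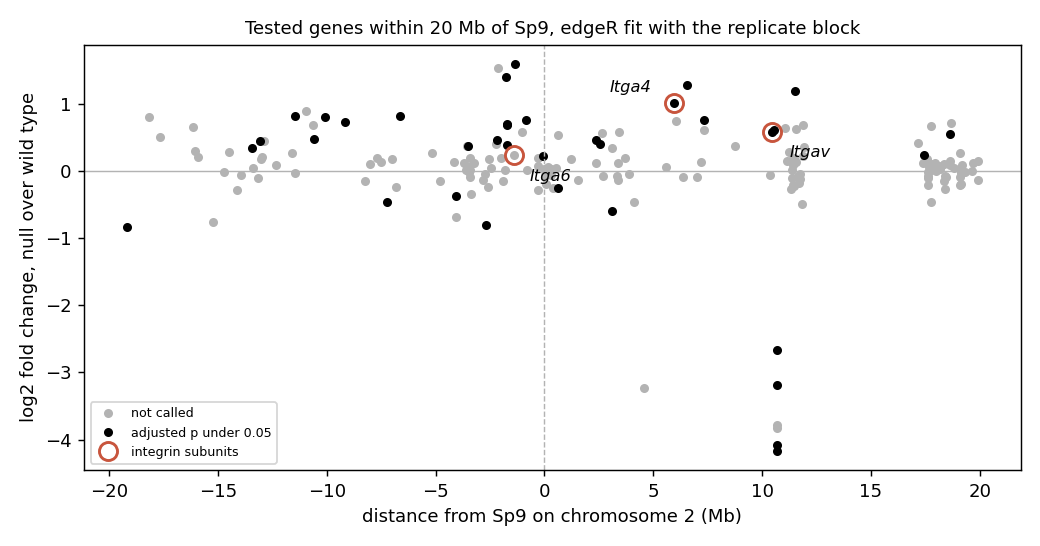
Log2 fold change, Sp9 null over wild type, of the 187 tested genes within 20 Mb of Sp9 (edgeR with the replicate block) against distance from Sp9 in Mb, with called genes in black and the integrin genes ringed. Itga4 and Itgav lie among other called genes at 5.97 and 10.44 Mb, most of them higher in null, beside a group of predicted genes (Gm13691 to Gm13698) that are far lower.

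The remaining laminin- and collagen-binding alpha subunits gave no call. Itga3, a laminin receptor subunit, had 11.3, 4.03 and 11.4 CPM in wild type and 8.20, 5.83 and 13.0 in null, with replicate 2 lowest in both genotypes. The collagen-binding subunits Itga1, Itga2, Itga10 and Itga11 had log2 fold changes from -0.0037 to 0.28 with the block. Itga5, Itga8 and Itga2b, which bind RGD proteins as Itgav does, had -0.12 (SE 0.14), 0.10 (SE 0.32) and -0.27 (SE 0.35). Itga9, the closest relative of Itga4, was higher in all 3 null libraries, at 4.69, 3.73 and 4.14 CPM against 3.67, 3.39 and 3.63, but the log2 fold change of 0.24 was smaller than its SE of 0.25. Gm2415, which overlaps Itga9, had 117% as many counts as Itga9.

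The beta subunits overlapped between the genotypes. Itgb1 had 177, 198 and 183 CPM in wild type and 190.4, 203 and 181 in null, which with the block gave 0.063 on the log2 scale (SE 0.059, adjusted p = 0.634). Itgb8 had 139, 189 and 153 CPM in wild type and 158, 219 and 159 in null. Each null library of Itgb8 was above the wild type library of its number, and the blocked log2 fold change was 0.17 (SE 0.061, adjusted p = 0.102). With genotype alone it was 0.18 (SE 0.17), and without null replicate 2 it was -0.0058. Itgb5 had -0.10 (SE 0.12). Itgb3, the platelet and endothelial beta subunit, had 17, 28 and 8 counts in wild type and 3, 15 and 9 in null, which overlap and gave -0.80 on the log2 scale with the block (SE 0.44, adjusted p = 0.355). Its platelet partner Itga2b had 20, 43 and 13 counts against 14, 22 and 17. Platelet markers were scarce, with a summed level of 4.79 CPM in wild type and 5.85 in null, of which Gp1bb alone made up most.

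The leukocyte integrins were near the floor. Itgad, Itgam, Itgax, Itgb2 and Itgb7 had at most 9 counts summed over the 3 libraries of a genotype. Itgae, with 18, 18 and 15 counts in wild type and 6, 36 and 24 in null, overlapped between genotypes (log2 fold change 0.44, SE 0.38), and Gsg2, which overlaps it, had 800% as many counts. Itgal, the alpha subunit of the leukocyte receptor LFA-1, was singled out after its values were seen. It had 14, 12 and 7 counts in wild type and 2, 3 and 1 in null, so that no null library reached the lowest wild type one. The ratio of wild type to null, from counts pooled over the libraries of each genotype, was 4.93 (95% counting interval 2.04 to 14.4). This interval leaves out the spread between libraries, and all null values were at or under the floor of 3 counts. Itgal did not pass the count filter, and without the filter its log2 fold change was -2.22 (SE 0.66, adjusted p = 0.486).

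Microglia and macrophage markers moved the same way as Itgal. Their summed level was 32.5 to 38.8 CPM in wild type and 9.01 to 15.8 CPM in null. Of 11 such markers 8 were tested, and all 8 had negative log2 fold changes. With genotype alone 0 of the 8 were called by edgeR, 6 had an unadjusted p under 0.05, and DESeq2 called 3. With the block 5 were called lower (P2ry12, Cx3cr1, Csf1r, Aif1 and C1qb), beside 4.0% of all genes called in either direction. P2ry12, a purinergic receptor of microglia, went from 5.61 ± 1.06 to 0.617 ± 0.417 CPM. The general leukocyte marker Ptprc was at 1.11 ± 0.169 and 0.962 ± 0.374 CPM. Their part in the Itgal values was not tested.

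None of the type IV collagens of basement membranes passed the test. Col4a1 had 158, 148 and 144 CPM in wild type and 177, 158 and 141 in null, and Col4a2 had 94.8, 93.7 and 88.9 against 107, 90.5 and 97.3. With the block their log2 fold changes were 0.093 (SE 0.061, adjusted p = 0.466) and 0.10 (SE 0.068, adjusted p = 0.458). The 2 genes lie head to head on chromosome 8 and overlap by 22 bases, and their FPKM ratio was 1.58 ± 0.0429 in wild type and 1.57 ± 0.151 in null. Summed over the 6 type IV chains, the level was 38.1 ± 1.57 and 40.2 ± 3.72 FPKM. Col4a6, an X-linked chain, was the only one of the 5 tested without overlap, at 6.82, 5.77 and 5.75 CPM against 5.42, 5.74 and 4.14, and its log2 fold change of -0.23 had an SE of 0.22. Col4a4 had -0.29 (SE 0.34), and Col4a3, too low to test, had 1, 1 and 0 counts in wild type and 1, 5 and 6 in null. Col4a3 is overlapped by C430014B12Rik, which had 927 counts over the 6 libraries against 14, so its few counts are uncertain.

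Fibrillar collagens summed to 27.8 ± 3.35 FPKM in wild type and 27.1 ± 1.67 in null. Col5a2 had a log2 fold change of -0.038 (SE 0.064) with the block, and the 9 tested chains ranged from -0.15 to 0.30. Col2a1 was highest in wild type replicate 2, with 40.9, 69.7 and 44.7 CPM in wild type and 50.2, 48 and 39.1 in null. Its blocked log2 fold change was -0.15 (SE 0.12, adjusted p = 0.602), and it was called only when the pair numbered 1 was left out (-0.34, SE 0.10, adjusted p = 0.0190). Of the multiplexins, the basement membrane collagens with endostatin domains, Col18a1 had 0.041 (SE 0.077). Col15a1 had 5.98, 6.78 and 6.55 CPM in wild type and 8.50, 8.47 and 8.06 in null, without overlap, and 0.39 (SE 0.19, adjusted p = 0.276). Col25a1, a transmembrane collagen of neurons, had 2.1, 1.10 and 2.02 CPM against 1.90, 1.28 and 4.03, which gave 0.46 (SE 0.36) with the block and, without null replicate 3, -0.13 with genotype alone.

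Type VI collagen, which forms beaded filaments in connective tissue, was low, at 0.559 ± 0.0879 FPKM in wild type and 0.379 ± 0.159 in null over 6 chains. Its Col6a3 chain (chromosome 1, 90765923 to 90843971) had 18, 13 and 11 counts in wild type and 4, 2 and 4 in null. The genotypes did not overlap, but the null values lay around the floor of 3 counts. The ratio of wild type to null, from counts pooled over the libraries of each genotype, was 3.77 (95% counting interval 1.86 to 8.42). This interval leaves out the spread between libraries. The log2 fold change was -1.83 (SE 0.53, adjusted p = 0.606) with genotype alone and -1.81 (SE 0.55, adjusted p = 0.0515) with the block, so Col6a3 did not pass. Its exact two-sided permutation p was 0.1. Col6a2 had 18, 24 and 21 counts against 16, 10 and 10, which gave -0.60 (SE 0.39, adjusted p = 0.451), and Col6a1, at 16 counts in wild type and 12 in null, was not tested.

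None of the laminin chains passed, and their log2 fold changes with the block lay between -0.15 and 0.21. Lamc1, the gamma chain shared by most laminins, had 65.8, 60.3 and 60.9 CPM in wild type and 67.4, 73.1 and 67.0 in null. These did not overlap, and the log2 fold change was 0.18 (SE 0.078, adjusted p = 0.220). Lamb2 had -0.094 (SE 0.078), Lamb1 -0.072 (SE 0.13) and Lama1 0.023 (SE 0.093). Lama4, the vascular alpha chain, had 19.2, 19.2 and 20.1 CPM against 25.9, 18.6 and 23.1, a log2 fold change of 0.21 (SE 0.12). Lama5 had 0.18 (SE 0.16), and Lama2, at 22 counts in wild type and 25 in null, was not tested.

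Counted over the tested members, 6 were higher in all null than in all wild type libraries (Itga4, Itgav, Itga6, Itga9, Col15a1 and Lamc1). That is 11.5% of the 52, against 4.95% of all tested genes. Only 2 were lower in all null libraries (Col6a3 and Col4a6), 3.85% against 8.06%. Of the 6 that were higher, 3 lie within 20 Mb of Sp9.

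Members also varied with the replicate number. In 19 of the 52 tested members (36.5%) both libraries numbered 2 lay above or below all 4 others, 10 of them low and 9 high, close to the 37.7% of all tested genes. Lama3, an alpha chain of epithelial laminin on chromosome 18, was counted 48, 4 and 99 times in replicates 1, 2 and 3 of wild type and 19, 9 and 94 times in null. Replicate 2 was thus lowest and replicate 3 highest in both genotypes. Col9a3, a collagen that binds to the surface of type II fibrils, had 24.4, 9.90 and 25.2 CPM in wild type and 27.0, 8.11 and 27.0 in null. Its log2 fold change was 0.068 (SE 0.56) with genotype alone and 0.037 (SE 0.13) with the block.

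Among genes of neighbouring forebrain tissue, Tbr1 and Otp were chosen after their values were seen, and both were lowest in the libraries numbered 2. Tbr1, a transcription factor of pallial neurons, had 141, 7 and 200 counts in wild type and 159, 1 and 395 in null, and Otp, of the hypothalamus and amygdala, had 19, 0 and 25 and 21, 1 and 34. Tbr1 also lies 11.46 Mb from Sp9 and was called higher in null with the block (log2 fold change 0.81, SE 0.19, adjusted p = 0.0238). With genotype alone Tbr1 was not called (0.89, SE 1.51, adjusted p = 0.977). In the pair numbered 2 it was lower in null, at 0.0911 CPM against 0.641 in wild type. Whether the dissected region differed between replicate numbers was not tested.

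**Figure D5:**
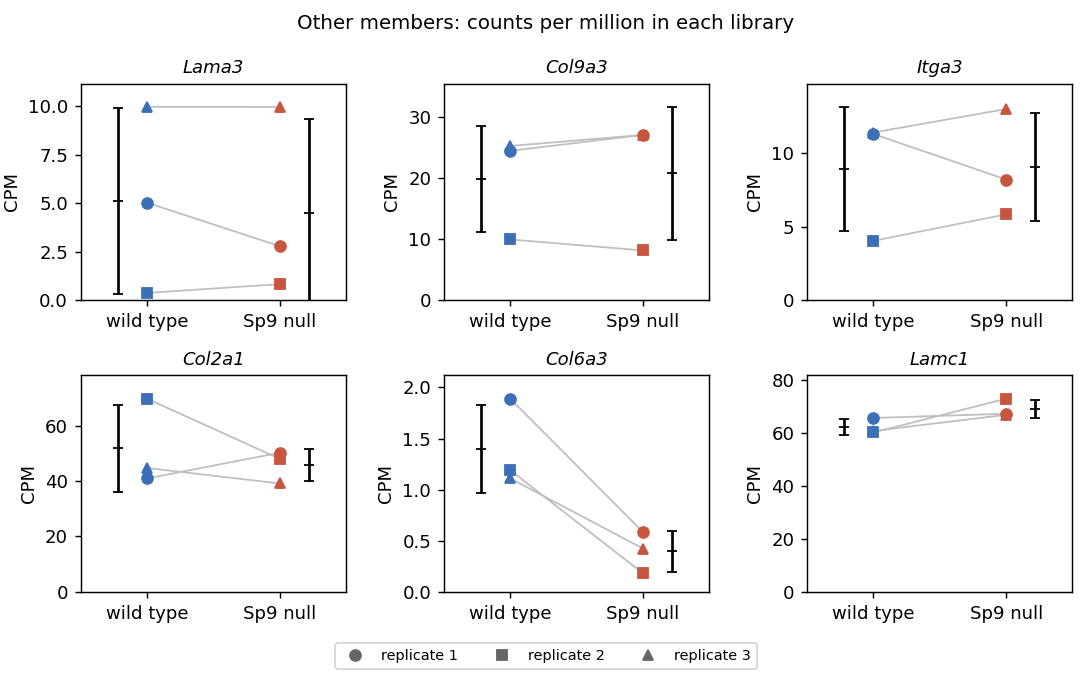
CPM of 6 further members in each library (axis from 0), wild type in blue and Sp9 null in red, with same-numbered libraries joined by lines and mean ± SD of 3 libraries beside the points. Lama3, Col9a3 and Itga3 are low in replicate 2 of both genotypes, Col2a1 is high in wild type replicate 2 alone, and for Col6a3 and Lamc1 the genotypes do not overlap. The null SD bar of Lama3 would pass below 0 and ends at the axis.

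Genes that work with the members were read from 4 lists. Of 63 genes in all, 57 were tested: 16 of 18 matrix partners, 17 of 18 integrin adaptors, 14 of 17 collagen processing genes and 10 of 10 genes of the dystroglycan pathway, which makes the other laminin receptor. With genotype alone 0 were called by edgeR and 0 by DESeq2, with 6 of 57 at an unadjusted edgeR p under 0.05, beside 5.91% of all genes. With the block only Smoc1 was called, 1 of 57 beside 4.0% of all genes. This calcium-binding protein of basement membranes fell from 45.5 ± 3.38 to 35.5 ± 2.30 CPM (log2 fold change -0.33, SE 0.090, adjusted p = 0.0266). Its call was lost when any pair of same-numbered libraries was left out (adjusted p = 0.0896 to 0.238). The median log2 fold change of the 57 was 0.0086 with the block. At an unadjusted edgeR p under 0.05 with the block there were 13 of 57, beside 17.2% of all genes. Without overlap between genotypes, 2 of the 57 were higher in null and 8 lower, beside 4.95% and 8.06% of all genes. The integrin adaptors talin (Tln1), integrin-linked kinase (Ilk) and focal adhesion kinase (Ptk2) had -0.048 (SE 0.071), 0.050 (SE 0.065) and -0.062 (SE 0.063), and dystroglycan (Dag1) had -0.010 (SE 0.062).

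Markers of cells that make much of this matrix were read beside the members. The summed level of 10 endothelial markers was 158 to 178 CPM in wild type and 151 to 172 CPM in null, and 0 of 10 were called with the block. For 8 pericyte and mural markers the ranges were 64.8 to 72.4 and 56.7 to 74.4 CPM, and 0 of the 7 tested were called. Of 8 meningeal and mesenchymal markers only Foxc1 and Prrx1 had enough counts to be tested. The list summed to 17.3 to 26.6 CPM in wild type and 22.8 to 30.5 in null. Prrx1 alone made up most of that sum, at 17.3 ± 4.22 and 20.9 ± 3.34 CPM. The fibroblast gene Dcn averaged 0.197 and 0.349 CPM. None of the 7 radial glia markers was called. The summed endothelial and pericyte levels thus overlapped between the genotypes, as did Col4a1, Col4a2 and Lama4, which vessels make. Emcn was the only single endothelial marker without overlap, at 3.99 ± 0.239 CPM in wild type and 4.80 ± 0.582 in null (adjusted p = 0.583 with the block).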

How the data were processed

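Processed values of RNA-seq from 6 MGE samples (3 wild type, 3 Sp9 null) were used. Per the file headers, the authors' deposited table gives a whole-number count and an FPKM per gene and library. TopHat, Cufflinks 2.1.1 and GRCm38.p4 appear in the submitters' processing notes, without roles; the counting program, strand setting and read filters are not given in the sources used here. Coordinates are those of the table, and 74 of the 83 members had the same ones in GENCODE M21.

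CPM was the count over the library total (9536050, 10914147 and 9917457 in wild type, 6826447, 10979280 and 9430442 in null). The test was edgeR 4.0.16 (R 4.3.3, quasi-likelihood, TMM, default filter, robust), genotype only, two-sided, Benjamini-Hochberg over 14929 genes, threshold 0.05. SE was taken as the absolute log2 fold change divided by the root of F. Deviations of same-numbered libraries correlated by 0.336, 0.729 and 0.535, so the numbers were taken to pair samples and a fit with the replicate block is given too (biological coefficient of variation 0.068, against 0.171). The labels do not say what a number marks, and wild type 1 correlated with null 3 by 0.354. DESeq2 1.42.0, RLE scaling, no filter and left-out libraries were alternatives. Fits were also run on counts simulated from these data. For the fit with the block the simulation took the pairing as given, so it does not test the pairing.

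Members and lists were chosen with earlier results of these data known. Named by rule were members called in either fit, the 3 highest and the 3 most different per class, those within 20 Mb of Sp9, leukocyte and platelet integrins, and vessel and pial basement membrane chains; other names were chosen after values were seen. The values of 1 member are not reported here.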

Additional observations from a re-analysis of the deposited data

How the results depend on the processing

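With the replicate block, 597 genes were called against 22 without it, 163 with the replicate block in DESeq2, 84 with DESeq2 alone and 65 without the expression filter. Leaving out 1 library gave 2 (without wild type replicate 1) to 34 (without null replicate 2), leaving out a pair with the replicate block gave 126 (number 2), 219 (number 3) and 1193 (number 1), and genotype alone without both libraries numbered 2, an alternative chosen after seeing the data, gave 89. Integrins called were 0 with genotype alone, 2 with the replicate block, 1 with DESeq2, 1 without the filter, 1 with the replicate block in DESeq2, 1 to 2 with the replicate block and a pair left out, and 1 with genotype alone without both libraries numbered 2. They were 0 with any single library left out and with RLE scaling. Collagens called were 0 except for 1 (Col2a1) with the replicate block without the pair numbered 1, and laminins called were 0 in all settings run. Partner genes called were 0 except for 1 with the replicate block and 2 when that fit left out the pair numbered 1. Over the settings run, the median log2 fold change was 0.015 to 0.25 for the integrins and 0.035 to 0.10 for the collagens. For the laminins it was -0.072 to 0.11, so its sign depended on the setting. Summed levels, null over wild type, were 1.01 to 1.10 for the integrins, 0.983 to 1.05 for the collagens and 0.977 to 1.05 for the laminins. Among the members and partner genes named, the replicate block changed only the calls of Itga4, Itgav and Smoc1. The causes were not tested.

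Depth limits the low members: 31 of 83 were too low to test, and a gene at 3 counts per library is at the floor. With 3 libraries per genotype the exact two-sided permutation test used here, which ignored the replicate number, cannot go below 0.1. Any gene without overlap reaches that value, so it adds nothing to the lack of overlap. Calls with the block rest on a pairing read from the data, and libraries numbered 1 and 3 were not told apart by it. For 9 tested members, Itga4, Itga1, Itga8, Itga9, Itgae, Col4a1, Col4a2, Col18a1 and Col20a1, an overlapping gene had over 10% of their counts.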
